A study of Mus musculus with 15 samples.

Results

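Gene expression of leukemia stem cells (LSC) from the spleen was set against that of their normal counterparts in bone marrow. The genes described were chosen by level: every gene of the authors' spleen-against-normal-marrow comparison with an FPKM of 1 or more in either group, 8903 of 23359 genes. FPKM is a count of a gene's sequenced fragments after division by transcript length and library depth. Spleen LSC (SPL LSC) came from mice of 3 months, labelled female, that carried a blast-crisis chronic myeloid leukemia model made by putting 2 human oncogenes, BCR-ABL and NUP98-HOXA9, into the same cells. They were taken 12 days after leukemia cells had been transplanted into recipients. The normal counterparts (NBM) came from normal bone marrow of the same labelled age and sex, although their labels repeat the strain and transplantation text of the leukemia samples. LSC from bone marrow (BM LSC) of the same model served as the third group, so that the spleen could be set against another leukemic site. Peripheral blood (BL LSC) and gonadal adipose tissue (AT LSC) are used here only for levels beside the others. Each of the 5 groups had 3 libraries, 15 in all. The labels give no sorting gate and no strain of recipient, and leave unsaid whether each of a group's 3 libraries had its own mouse. The p-values may therefore measure only technical spread.

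BCR-ABL is a constitutively active tyrosine kinase that signals through STAT5, RAS-ERK and PI3K in place of growth factors. NUP98-HOXA9 is a fusion transcription factor that keeps HOXA-cluster genes and their cofactor MEIS1 active and holds myeloid cells at an immature stage. Together they turn a chronic, maturing myeloid leukemia into an acute one. The mouse spleen, unlike the human one, carries out blood formation in its red pulp throughout life and expands red cell and platelet production under stress. Myeloid leukemias of the mouse commonly fill it. In RNA from a bulk of cells, fewer cells of a type and less RNA per cell cannot be told apart.

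Of the 8903 genes, 8790 had a test in the authors' deposited table and 1157 passed it at a q-value below 0.05, the call used throughout. Of the tested genes, 634 (7.21%) were higher in SPL LSC and 523 (5.95%) were lower. Over all 12498 tested genes of the table, without the level threshold, 796 were higher and 774 lower. The smallest called changes were 1.04 and -1.02 on the log2 scale, and the median called changes were 2.04 and -2.03. Changes of at least 3 on the log2 scale numbered 184 upward and 82 downward. The median of all 8790 tested genes lay at 0.20, above 0, and folds of gene groups below are given beside that value. Adjusting q within this comparison alone gave 562 higher and 463 lower. Scaling SPL LSC and NBM to equal totals of estimated counts lowers each fold by 0.27. With that scaling and the same adjustment, the split became 428 higher and 637 lower. In the following, each level is a group FPKM pooled over 3 libraries with the deposited bounds, 2 standard deviations either side. Each fold is a log2 ratio from the authors' deposited table, and ± is the standard error that its fold and test statistic imply.

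**Figure D1:**
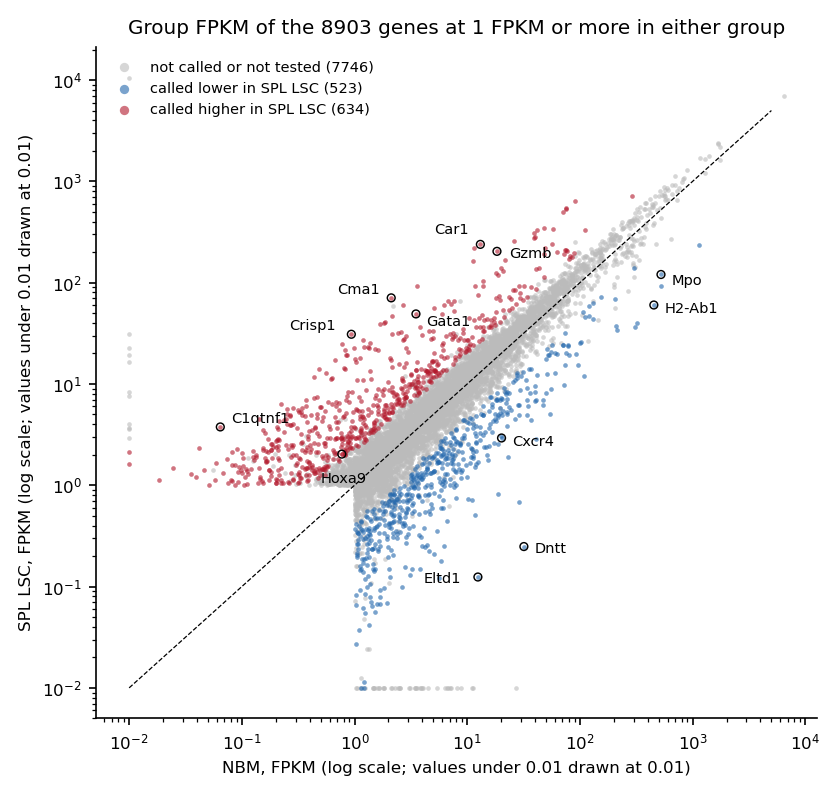
Pooled FPKM of the 8903 genes in NBM (x axis) and SPL LSC (y axis), both on log scales, with genes called higher in red (634), called lower in blue (523) and the rest in grey; the dashed line marks equal levels. The empty lower left corner is the level threshold, and the circled genes are described in the text.

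The number called depended little on level among the less abundant genes. In genes whose higher FPKM lay between 1 and 5, 6.96% were higher and 6.21% lower. Among the 303 genes above 125 FPKM, 35 were higher (11.6%) and 13 lower (4.29%). At the threshold itself, Myh11, a smooth muscle myosin, lay just inside with 1.00028 FPKM in SPL LSC, and Chst11 just outside with 0.999955 FPKM.

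Red cell genes were higher in SPL LSC than in normal marrow cells. Of 20 tested erythroid members, 14 were called higher and 0 lower, with a list median of 2.94 against 0.20 for all tested genes. Gata1, the transcription factor that directs red cell and platelet development (chromosome X, 7959260 to 7967910, mm10), was at 49.1 FPKM in SPL LSC (24.6 to 73.6) and 3.51 in NBM (2.07 to 4.94). It stood at 25.3 FPKM in BM LSC, 15.6 in BL LSC and 8.24 in AT LSC, so that every leukemic site lay above normal marrow and the spleen was highest. The authors' deposited table gave Gata1 a fold of 3.81 ± 0.47 over NBM (q = 5.49e-14). Car1, carbonic anhydrase of early red cells (chromosome 3, 14766214 to 14808365), was at 239 FPKM (113 to 364) against 13.1 in NBM (7.71 to 18.4). Its fold in the authors' deposited table was 4.19 ± 0.48, with q listed as 0.

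Genes for red cell membrane proteins and a receptor were among the erythroid members called higher. Epor, the receptor for erythropoietin, rose from 0.170 FPKM in NBM to 2.85 in SPL LSC (4.07 ± 0.64, q = 1.42e-08 in the authors' deposited table). Rhag, the Rh-associated glycoprotein, was at 22.0 against 1.53 FPKM, and Icam4, a red cell adhesion molecule, at 27.2 against 2.67. Tspo2, an erythroid outer membrane protein, was at 14.2 against 0.816 FPKM. Rhd and Ermap, which encode red cell surface antigens, were at 3.03 against 0.385 and at 3.68 against 0.449 FPKM. The authors' deposited table called each of these 6 higher, with folds from 2.98 (Rhd) to 4.12 (Tspo2).

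Genes of late red cell maturation were less uniform. Alas2, which starts heme synthesis in red cells, was at 2.10 FPKM in SPL LSC (0.750 to 3.45) and 0.845 in NBM (0.372 to 1.32), and the authors' deposited table gave it q = 0.117. The merged alpha globin entry of Hba-a1 and Hba-a2 was at 260 against 26.2 FPKM, and that of Hbb-b1 and Hbb-b2 at 307 against 38.9. Both merged entries were called higher in the authors' deposited table (3.31 ± 0.58, q = 5.64e-07, and 2.98 ± 0.67, q = 0.000142). Reads of near-identical globin copies cannot be assigned with certainty. Fech, Tfrc and Uros, for heme assembly, iron uptake and porphyrin synthesis, had folds from 0.32 to 0.60 and were not called.

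The promoters of 3 erythroid genes that were higher are shown because each holds the core GATA site that GATA1 binds. The windows run from 250 bases before the transcript start to 20 bases of the start onward, from RefSeq on GRCm38.p6, 5′ to 3′ on the gene's strand. Capitals mark AGATAA or its reverse complement TTATCT, and both strands were searched. The windows are chr9:21963557-21963826 on the minus strand for Epor, chr9:21029182-21029451 on the plus strand for Icam4 and chr4:134864286-134864555 on the plus strand for Rhd.
Epor: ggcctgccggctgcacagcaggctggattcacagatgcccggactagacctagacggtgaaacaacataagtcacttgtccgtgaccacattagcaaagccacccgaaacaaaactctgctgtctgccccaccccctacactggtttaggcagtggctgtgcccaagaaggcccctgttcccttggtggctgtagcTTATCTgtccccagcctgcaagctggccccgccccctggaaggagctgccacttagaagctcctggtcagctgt
Icam4: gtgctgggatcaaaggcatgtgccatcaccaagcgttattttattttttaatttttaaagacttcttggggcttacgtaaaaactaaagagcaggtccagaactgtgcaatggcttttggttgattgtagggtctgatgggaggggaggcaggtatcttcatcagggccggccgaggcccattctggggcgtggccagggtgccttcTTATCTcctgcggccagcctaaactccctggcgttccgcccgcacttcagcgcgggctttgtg
Rhd: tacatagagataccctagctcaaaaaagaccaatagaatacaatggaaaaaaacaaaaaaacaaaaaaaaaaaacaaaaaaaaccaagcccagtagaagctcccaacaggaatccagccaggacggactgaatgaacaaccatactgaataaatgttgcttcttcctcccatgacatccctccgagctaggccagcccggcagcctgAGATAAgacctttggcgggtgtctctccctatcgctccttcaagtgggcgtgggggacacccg
The match lay 54 bases before the start in Epor and 43 bases before it in both Icam4 and Rhd. Of the 10 erythroid genes called higher with a window, 4 held the motif, the other being Art4, as did 1 of 4 erythroid genes not called. It was in 9.15% of 14890 windows over all genes, 6.82% of those of 5939 tested members, 11.9% of those of genes called higher and 11.2% of those called lower. Of 10 MHC class II and dendritic cell genes called lower with a window, 2 held it. None of the 8 megakaryocyte genes called higher with a window held it. A match is a string of letters and was not tested for binding.

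Platelet and megakaryocyte genes were also higher. Of 16 tested members, 11 were called higher and 1 lower, with a median of 2.47 against 0.20. Pf4, platelet factor 4 (chromosome 5, 90772435 to 90773383), was at 61.1 FPKM in SPL LSC (32.4 to 89.7) and 7.17 in NBM (3.47 to 10.9), a fold of 3.09 ± 0.50 (q = 4.49e-08 in the authors' deposited table). Gp1ba, a subunit of the platelet receptor for von Willebrand factor, was at 6.33 against 0.637 FPKM, and Vwf itself at 1.79 against 0.129. F2r and F2rl2, thrombin receptors, were at 11.1 against 1.40 and at 31.7 against 2.43 FPKM. Itga2b, the integrin subunit CD41, was at 11.5 against 2.64 FPKM. The authors' deposited table gave these genes folds between 2.12 (Itga2b) and 3.79 (Vwf). Selp, P-selectin, was the member called lower (-1.48 ± 0.55, q = 0.0351), at 0.975 against 2.73 FPKM. With q adjusted within the comparison alone, 0 members were lower. In BM LSC over NBM, 10 of the 16 were higher and 2 lower. In SPL LSC over BM LSC, 2 were higher and 0 lower, with 0 or 1 higher under the alternative scalings and adjustment. Pf4 was not called between these 2 sites (0.81, q = 0.158).

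Mast cell and basophil genes formed another group that was higher, 11 of 14 tested members against 1 lower, with a median of 1.76. Cma1, mast cell chymase (chromosome 14, 55941451 to 55944661), was at 70.8 FPKM in SPL LSC (35.4 to 106) and 2.12 in NBM (1.03 to 3.20). Its fold of 5.06 ± 0.52 was among the 14 largest that the naming rule took, with q listed as 0 in the authors' deposited table. Hdc, the enzyme that makes histamine, was at 166 against 21.6 FPKM (2.94 ± 0.43, q = 9.20e-10). The proteases Mcpt4 and Mcpt8, the carboxypeptidase Cpa3 and Ms4a2, the beta chain of the IgE receptor, had folds of 3.56, 1.17, 1.42 and 1.53 in the authors' deposited table. Fcer1a, the IgE-binding chain of the same receptor, went the other way, from 8.24 FPKM in NBM to 2.18 in SPL LSC (-1.92 ± 0.50, q = 0.00164). The list kept 9 members called higher when folds were centred on the median gene, and 7 under total count scaling.

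Granzyme genes lie beside the mast cell proteases on chromosome 14 and were higher with them. Gzmb, a serine protease stored in the granules of cytotoxic lymphocytes and some mast cells, was at 204 FPKM in SPL LSC (99.7 to 308) and 18.4 in NBM (12.6 to 24.1). All 7 granzyme genes of chromosome 14 that were tested were called higher, with folds from 3.03 to 3.47 in the authors' deposited table. Folds this close among neighbouring copies can come from reads shared between them, so the 7 calls are not 7 independent ones.

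In the list of BCR-ABL, JAK-STAT5 and ERK feedback genes, 3 of 21 tested members were higher and 3 lower. Socs2, a suppressor of cytokine signalling, was at 8.66 FPKM in SPL LSC (3.62 to 13.7) and 1.27 in NBM (0.636 to 1.90), a fold of 2.77 ± 0.55 (q = 1.45e-05 in the authors' deposited table). Cish, a related inhibitor and STAT5 target, was at 34.6 FPKM (18.3 to 50.9) against 9.25 (6.34 to 12.2), a fold of 1.90 ± 0.41 (q = 6.92e-05). Bcl2l1, which encodes the survival protein BCL-XL, was at 11.7 against 4.75 FPKM (1.30 ± 0.42, q = 0.0134). The call of Bcl2l1 ended under total count scaling (q = 0.101) and upper quartile scaling (q = 0.0619). The list median was 0.02 against 0.20.

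The members that were lower include other feedback genes. Socs3, the inhibitor induced mainly through STAT3, was at 0.187 against 1.16 FPKM (-2.63 ± 0.64, q = 0.000545 in the authors' deposited table). Ccnd1, a cyclin of the G1 phase, was at 0.328 against 1.35 FPKM (-2.04 ± 0.52, q = 0.00107). Spry2, an inhibitor of RAS-ERK signalling, was at 0.823 against 2.22 FPKM (-1.43 ± 0.53, q = 0.0359), and q became 0.0601 when adjusted within the comparison alone. Pim1, a kinase gene also induced by STAT5, was at 0.713 FPKM in SPL LSC (0.248 to 1.18) and 1.38 in NBM (0.805 to 1.95) and was not called. Bcr and Abl1, the mouse counterparts of the fused genes, were at 0.385 against 0.494 and at 1.30 against 1.14 FPKM, neither called.

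The promoter of Cish is shown for its STAT motif, TTCNNNGAA, which reads the same on both strands. Capitals mark 2 matches, at the transcript start and 11 bases after it, in chr9:107296409-107296678 on the plus strand (GRCm38.p6, RefSeq).
Cish: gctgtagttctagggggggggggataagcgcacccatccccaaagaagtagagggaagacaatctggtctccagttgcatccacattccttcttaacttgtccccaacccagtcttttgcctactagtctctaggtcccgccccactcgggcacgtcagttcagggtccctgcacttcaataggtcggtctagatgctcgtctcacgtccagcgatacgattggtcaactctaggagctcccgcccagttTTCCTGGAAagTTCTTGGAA
Of the STAT5 and ERK feedback list, 1 of 2 genes called higher with a window held the motif, as did 1 of 2 called lower and 0 of 11 not called. It was in 7.34% of the windows of all genes, 7.46% of those of tested members, 8.86% of those of genes called higher and 10.9% of those called lower.

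HOX genes and their cofactors had calls upward. Of 12 tested members of the HOXA, HOXB, MEIS and PBX list, 5 were called higher and 0 lower, with a median of 1.23. Pbx3, whose product binds DNA together with HOX proteins, was at 4.17 FPKM in SPL LSC (2.10 to 6.24) and 0.379 in NBM (0.165 to 0.593), a fold of 3.46 ± 0.54 (q = 1.14e-08 in the authors' deposited table). Hoxa9, the mouse counterpart of the fused gene (chromosome 6, 52224054 to 52227370), was at 2.03 FPKM (0.863 to 3.20) against 0.771 (0.434 to 1.11). The authors' deposited table gave Hoxa9 a fold of 1.40 ± 0.52 (q = 0.0376). Hoxa10 stood at 1.41 against 0.496 FPKM, Hoxb5 at 1.36 against 0.463 and Hoxb7 at 2.70 against 0.873, with folds of 1.51, 1.55 and 1.63. Meis1 was at 14.2 against 6.65 FPKM and was not called (1.09 ± 0.49, q = 0.0939).

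Only the call of Pbx3 among these 5 held under every alternative scaling tried. Under total count scaling q became 0.175 for Hoxa9, 0.132 for Hoxa10, 0.112 for Hoxb5 and 0.0738 for Hoxb7. The call of Hoxa9 also ended without scaling, when q was adjusted within the comparison alone (0.0626). With folds centred on the median gene, 2 of the 5 calls remained. Human NUP98-HOXA9 transcripts were not analysed here as a gene of their own, and whether their fragments were assigned to Hoxa9 was not tested. For this list the BM LSC over NBM comparison of the same genes had 6 higher and 0 lower, where 7.96% and 7.54% of the 8772 tested genes were called higher and lower.

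Genes of stem and early progenitor cells changed in both directions, 8 of 22 tested members higher and 4 lower. Slamf1, the CD150 antigen used to sort blood stem cells (chromosome 1, 171767132 to 171801184), was at 8.35 FPKM in SPL LSC (4.24 to 12.5) and 0.880 in NBM (0.489 to 1.27). Its level was 2.15 FPKM in BM LSC, 0.373 in BL LSC and 0.279 in AT LSC, so the spleen stood above all the others. The fold over NBM was 3.25 ± 0.48 (q = 9.93e-10 in the authors' deposited table). Gfi1b and Gata2, transcription factors of megakaryocyte, red cell and mast cell precursors, were at 22.7 against 2.83 and at 7.86 against 1.78 FPKM. Tal1, a partner of GATA1, was at 1.27 against 0.215 FPKM. All 3 were called, with folds of 3.00, 2.14 and 2.56 in the authors' deposited table.

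Surface markers of progenitors went in both directions. Cd48, an antigen of multipotent and committed progenitors, was higher at 194.6 against 89.1 FPKM (1.13 ± 0.42, q = 0.0398 in the authors' deposited table). The call of Cd48 ended under each scaling and when q was adjusted within the comparison, which left 7 members of the list higher. Cd34, an antigen of stem and progenitor cells, was at 9.60 FPKM in SPL LSC (4.32 to 14.9) and 40.0 in NBM (27.3 to 52.7), a fold of -2.06 ± 0.46 (q = 0.000128 in the authors' deposited table). Kit, the receptor for stem cell factor, was at 4.10 against 10.4 FPKM (-1.34 ± 0.43, q = 0.0132). Flt3, the receptor that marks early lymphoid and myeloid progenitors, was at 0.522 against 4.64 FPKM (-3.15 ± 0.49, q = 6.33e-09). Ly6a, which encodes Sca-1, was at 97.9 FPKM in SPL LSC (46.1 to 150) and 199 in NBM (149 to 249), not called (q = 0.0671).

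Of 21 tested lineage transcription factors, 5 were lower, 3 were higher and 13 were not called. Irf8, required for monocytes and dendritic cells (chromosome 8, 120736376 to 120756692), was at 0.710 FPKM in SPL LSC (0.243 to 1.18) and 10.9 in NBM (7.59 to 14.2). The authors' deposited table gave Irf8 a fold of -3.94 ± 0.52 (q = 7.50e-12). Irf4 and Ikzf3, of lymphocytes and dendritic cells, were lower with folds of -2.86 and -1.66. Klf4 and Klf2, also counted among the immediate early genes below, had folds of -2.33 ± 0.56 (q = 0.000432) and -1.54 (q = 0.0309). The call of Klf2 ended when q was adjusted within the comparison (0.0517). The 3 that were higher were Gata1, Gata2 and Gfi1b.

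Primary granule genes of the neutrophil series changed in both directions, with 4 of 20 tested members higher, 3 lower and 13 not called. Mpo, myeloperoxidase of the first granules (chromosome 11, 87793784 to 87804412), was at 120 FPKM in SPL LSC (49.4 to 191) and 524 in NBM (406 to 641). Its fold was -2.12 ± 0.46 (q = 6.55e-05 in the authors' deposited table). The granule proteases Prtn3 and Elane had folds of -2.17 and -1.71 with standard errors of 2.34 and 1.32 and were not called. Cd63 and Nkg7, granule membrane proteins, were higher, at 139 against 43.4 and 329 against 110 FPKM, as was Prg3, an eosinophil granule protein, at 3.77 against 0.988.

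Later granule and neutrophil genes had 7 of 25 tested members lower and 0 higher, with a median of -1.18. Chi3l3, a chitinase-like protein of maturing granulocytes, was at 36.8 FPKM (14.5 to 59.1) against 305 (236 to 374), a fold of -3.05 ± 0.47 (q = 4.58e-09 in the authors' deposited table). Csf3r, the receptor for G-CSF, was at 1.19 against 8.76 FPKM (-2.88 ± 0.60, q = 3.18e-05), and Il1r2, a decoy receptor, at 17.8 against 49.7. Camp, Ltf, Ngp and S100a8, the most abundant proteins of late granules and cytosol, had folds between -1.40 and -0.97 and were not called.

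Monocyte and macrophage genes were lower in 10 of 24 tested members and higher in 3, with a median of -1.16. F13a1, a coagulation factor chain of monocytes, was at 2.84 FPKM (0.935 to 4.74) against 40.8 (28.2 to 53.4), a fold of -3.85 ± 0.53 (q = 6.02e-11 in the authors' deposited table). Csf1r, the receptor that sustains monocytes, was at 5.02 against 22.4 FPKM (-2.16 ± 0.51, q = 0.00038). Ccr2, their chemokine receptor, was at 12.4 against 41.7 FPKM (-1.75 ± 0.39, q = 0.000153). Emr1, which encodes F4/80, and the chemokines Ccl6 and Ccl9 were higher instead, at 16.9 against 4.84, 135 against 40.8 and 42.6 against 14.2 FPKM. Markers of splenic red pulp and tissue macrophages, which a spleen sample could hold, had 1 of 14 tested members higher than NBM and 3 lower. The higher was Marco, a scavenger receptor, at 1.10 FPKM against 0.0817. Its levels in BL and AT LSC were 6.72 and 48.5 FPKM. Of the lower ones, Itgad and Cd300e lost their calls when q was adjusted within the comparison (0.0621 and 0.0827).

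Genes of antigen presentation to helper T cells were lower together. Of 19 tested MHC class II and dendritic cell genes, 13 were called lower and 0 higher, with a median of -2.29 against 0.20. H2-Ab1, a class II beta chain (chromosome 17, 34263227 to 34269418), was at 60.2 FPKM in SPL LSC (23.7 to 96.6) and 453 in NBM (342 to 563). BM LSC were at 54.3, BL LSC at 88.1 and AT LSC at 54.0 FPKM, so all 4 leukemic sites lay far under normal marrow. The fold of H2-Ab1 over NBM was -2.91 ± 0.47 (q = 3.60e-08 in the authors' deposited table). H2-Aa and H2-Eb1, further class II chains, had folds of -2.49 ± 0.42 and -2.65 ± 0.42. Ciita, the master regulator of class II genes, was at 1.05 against 7.70 FPKM (-2.87 ± 0.62, q = 7.70e-05). Siglech of plasmacytoid dendritic cells and Cd209a and Batf3 of conventional ones had folds of -3.88, -4.35 and -4.44 in the authors' deposited table.

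MHC class II promoters carry a Y box bound by NF-Y. The promoters of H2-Eb1 (chr17:34305617-34305886, plus strand) and H2-Aa (chr17:34287804-34288073, minus strand) are shown for it, with CTGATTGG in capitals (GRCm38.p6, RefSeq). Both strands were searched, the other reading CCAATCAG.
H2-Eb1: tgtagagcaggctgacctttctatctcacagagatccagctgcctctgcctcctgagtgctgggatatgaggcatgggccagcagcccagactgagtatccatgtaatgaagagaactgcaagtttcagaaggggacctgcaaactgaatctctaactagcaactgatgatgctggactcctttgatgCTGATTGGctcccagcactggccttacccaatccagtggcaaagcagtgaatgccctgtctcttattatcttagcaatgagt
H2-Aa: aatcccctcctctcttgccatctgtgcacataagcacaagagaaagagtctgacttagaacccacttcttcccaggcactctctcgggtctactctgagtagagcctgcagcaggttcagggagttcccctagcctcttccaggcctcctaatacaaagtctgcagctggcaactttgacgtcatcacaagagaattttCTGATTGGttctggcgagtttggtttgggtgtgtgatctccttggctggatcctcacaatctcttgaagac
The box lay 62 bases before the start in H2-Eb1 and 51 bases before it in H2-Aa. Of the 10 genes of the list that were lower and had a window, 2 held these letters, against 5.06% of all windows, 6.79% of those of tested members and 3.63% of those of genes called lower. In the same 10 windows the STAT motif was found in 3 and the GATA motif in 2. The 19 tested MHC class I presentation genes had 0 calls by Cuffdiff, 0 unadjusted p-values below 0.05 and a median of -0.33.

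T cell, NK cell and innate lymphoid genes were lower in 16 of 23 tested members, with a median of -2.03. Cd3e, a chain of the T cell receptor complex (chromosome 9, 44998743 to 45009590), was at 1.98 FPKM in SPL LSC (0.718 to 3.25) and 14.9 in NBM (9.96 to 19.8), a fold of -2.90 ± 0.52 (q = 8.42e-07 in the authors' deposited table). Cd4 was at 0.601 against 6.16 FPKM and Il2rb, a chain of the IL-2 and IL-15 receptors, at 1.20 against 9.93. The 1 member called higher was Thy1, at 2.84 against 0.673 FPKM, which stromal cells also express. The summed FPKM of all 28 genes found was 67.5 in SPL LSC and 243 in NBM, and Tbx21 was listed at 0 in SPL LSC.

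B cell genes were lower in 4 of 15 tested members and higher in 0, with a median of -1.13. Dntt, the terminal transferase that marks early lymphoid progenitors (chromosome 19, 41029275 to 41059525), was the most reduced of the genes named, at 0.248 FPKM (0.0527 to 0.444) against 31.8 (23.1 to 40.5). Its fold was -7.00 ± 0.60, with q listed as 0 in the authors' deposited table. Igj, the immunoglobulin joining chain, was at 11.9 against 109 FPKM, and Igll1, of the pre-B cell receptor, at 4.32 against 18.1. Ms4a1 (CD20), a marker of the B lineage, was at 3.22 against 1.17 FPKM and was not called (q = 0.0921). The summed FPKM of the 24 genes found was 51.4 in SPL LSC, 209 in NBM and 20.8 in BM LSC. What the lymphoid transcripts of SPL LSC contributed to these results was not tested.

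**Figure D2:**
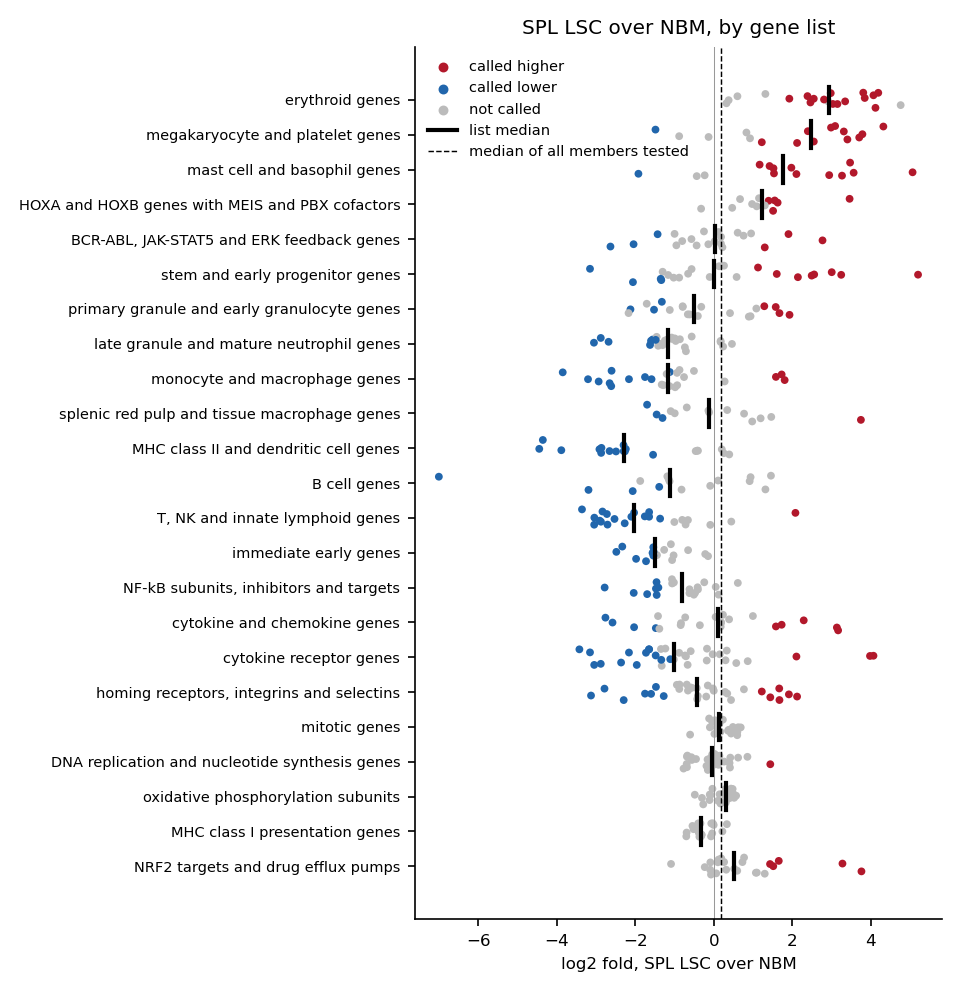
Log2 folds of SPL LSC over NBM (x axis) for the tested members of 23 gene lists, each point a gene, red when called higher, blue when called lower and grey otherwise; black bars are list medians and the dashed line is the median of all tested members, 0.20. Erythroid genes sit furthest to the right (median 2.94) and MHC class II and dendritic cell genes furthest to the left (median -2.29).

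Growth factors and inflammatory messengers split. Csf2, which encodes GM-CSF, was at 2.52 FPKM in SPL LSC (0.841 to 4.19) and 0.286 in NBM (0.0637 to 0.509), a fold of 3.14 ± 0.74 (q = 0.000337 in the authors' deposited table). Il4, a cytokine of basophils and mast cells, was at 6.54 against 0.728 FPKM (3.17 ± 0.84, q = 0.00188), and Lif at 2.62 against 0.535. Ccl5, Ccl22 and Il12a, made by T and dendritic cells, were lower with folds of -2.03, -2.76 and -2.58 in the authors' deposited table. Il1b was at 4.92 against 3.75 FPKM, Tnf at 1.68 against 2.15 and Il6 at 3.89 against 1.95, none of them called. In all, 5 of 22 tested cytokine genes were higher and 4 lower.

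Of 33 tested cytokine receptors, 13 were lower, 3 were higher and 17 were not called. Il6st, the shared signalling chain gp130, was at 0.205 FPKM against 2.19 (-3.42 ± 0.55, q = 3.33e-08 in the authors' deposited table). Il4ra was at 4.50 against 17.5 FPKM and Tnfrsf1b, a TNF receptor, at 1.71 against 5.67. The 3 that were higher were Epor, Il2ra and Il1rl1, the receptor for IL-33. Il2ra, the IL-2 receptor alpha chain CD25 (chromosome 2, 11642792 to 11693194), was at 16.3 FPKM (8.65 to 24.0) against 1.03 (0.581 to 1.49), a fold of 3.98 ± 0.46 with q listed as 0. Its level was 28.3 FPKM in BM LSC, 24.2 in BL LSC and 15.5 in AT LSC, so every leukemic site lay above NBM. Csf2rb and Csf2rb2, the shared beta chains for GM-CSF and IL-3, differed by -0.17 and -0.18 and were not called.

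Immediate early genes, which respond within minutes to stimulation or handling of cells, were lower in 8 of 16 tested members and higher in 0, with a median of -1.49. Fos (chromosome 12, 85473901 to 85477270) was at 37.5 FPKM in SPL LSC (13.9 to 61.2) and 210 in NBM (161 to 258), a fold of -2.48 ± 0.48 (q = 8.41e-06 in the authors' deposited table). Its levels in BM, BL and AT LSC were 131, 97.6 and 62.0 FPKM, so the spleen was lowest of the 5 groups. Klf4, a transcription factor of the same list, was at 0.644 against 3.24 FPKM. Jun, Dusp1, Atf3, Zfp36 and Btg2, of the same response, had folds from -1.98 to -1.53. The calls of Atf3 and Klf2 ended when q was adjusted within the comparison, which left 6 members lower. NF-kB subunits, inhibitors and targets were lower in 7 of 20 tested members and higher in 0. They included Icam1, an adhesion molecule (-1.47 ± 0.42, q = 0.00389), and Tnfaip3, an inhibitor of the pathway (-1.70 ± 0.53, q = 0.0101). How the cells were handled before lysis is not in the labels, and its part in these values was not tested.

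Homing receptors, integrins and selectins changed in both directions, with 6 of 31 tested members higher and 7 lower. Cxcr4, the receptor for the marrow chemokine CXCL12 (chromosome 1, 128588199 to 128592299), was at 2.93 FPKM in SPL LSC (1.19 to 4.66) and 20.2 in NBM (14.4 to 25.9), a fold of -2.78 ± 0.47 (q = 2.01e-07 in the authors' deposited table). BM, BL and AT LSC stood at 1.98, 1.99 and 2.26 FPKM, all under NBM as well. Selplg, the ligand of P-selectin, was at 45.7 against 111 (-1.27 ± 0.40, q = 0.00986). S1pr1, a receptor by which cells leave tissue for blood, was higher at 3.04 against 0.957 FPKM (1.67 ± 0.48, q = 0.00454). Cd9 and Itga6, of cell adhesion, were also higher, with folds of 1.44 and 1.91.

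Among antigens studied on leukemic stem cells, 9 of 20 tested genes were lower and 3 higher. The 3 were Il2ra, Cd9 and Cd36, a fatty acid transporter at 5.90 against 2.16 FPKM (1.45 ± 0.46, q = 0.0125 in the authors' deposited table). Cd36 was no longer called over NBM under total count scaling (q = 0.0842) or upper quartile scaling (q = 0.0525). Its level was 15.9 FPKM in BM LSC, 41.3 in BL LSC and 24.4 in AT LSC, so the spleen was the lowest leukemic site. Cd36 was called lower than in BM LSC (-1.43, q = 0.00648), but not when q was adjusted within that comparison (0.0728). Dpp4 (CD26) was at 0.814 against 4.54 FPKM and Cd27 at 2.63 against 17.3, with folds of -2.48 and -2.72. Il1rap, Cd47, Cd33 and Cd44 had folds from -0.58 to 0.17 and were not called.

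Genes of mitosis had no calls. Of 26 tested mitotic genes 0 were called in the authors' Cuffdiff table, and 0 had an unadjusted p-value below 0.05, with a median of 0.14 against 0.20. Mki67, a protein of dividing cells, was at 17.1 FPKM in SPL LSC (8.22 to 26.0) and 16.2 in NBM (12.3 to 20.2), a fold of 0.07 ± 0.41. Of 30 replication genes E2f8, a repressor of E2F targets, was called, at 13.8 against 5.07 FPKM (1.44 ± 0.43, q = 0.00683 in the authors' deposited table), and total count scaling ended that call (q = 0.0563). Myc was at 32.7 FPKM (15.0 to 50.3) against 39.2 (28.9 to 49.6), not called, and Mycn at 1.14 against 0.203 (2.49 ± 0.58, q = 0.000249). Cdkn2c, an inhibitor of cyclin D kinases, was at 5.40 against 1.15 FPKM (2.23 ± 0.54, q = 0.000584). The median standard error of a fold was 0.46 and the smallest called changes are given above, so a gene not called is not shown to be unchanged.

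Calls among energy metabolism genes are set beside 7.21% higher and 5.95% lower over all tested genes. The 26 oxidative phosphorylation genes had 0 calls by Cuffdiff, 0 unadjusted p-values below 0.05 and a median of 0.31. Of 21 glycolysis genes, Hk1 and Slc2a3 were higher and Ldhb and Hk3 lower. Ldhb, a lactate dehydrogenase chain, was at 0.721 against 6.14 FPKM (-3.09 ± 0.54, q = 4.21e-07 in the authors' deposited table), and Hk1, a hexokinase, at 27.4 against 9.34. Slc2a3, a glucose transporter, lost its call under each scaling tried (q = 0.117 to 0.229), and the call of Hk3 ended when q was adjusted within the comparison (0.0629). Fabp5, a fatty acid binding protein, was at 192 against 47.8 FPKM (2.00 ± 0.50, q = 0.000845). Fatty acid oxidation had 1 call in 21 genes, Ehhadh at 1.60 against 0.422 FPKM, and sterol synthesis had 3 in 23. Of those 3, Lss, Stard4 and Idi1, only Lss kept its call under upper quartile scaling.

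Detoxification and iron genes had more calls upward than downward, where 7.21% of all tested genes were higher and 5.95% lower. Of 23 tested NRF2 targets and drug efflux pumps, 5 were higher and 0 lower, and 3 were higher under total count scaling. Nqo1, a quinone reductase, was at 6.64 FPKM (3.16 to 10.1) against 0.684 (0.357 to 1.01), a fold of 3.28 ± 0.51 (q = 1.04e-08 in the authors' deposited table). Aldh1a1, an aldehyde dehydrogenase used to mark stem cells, was at 2.53 against 0.187 FPKM (3.76 ± 0.58, q = 5.30e-09). The efflux pumps Abcb1a and Abcg2 were at 4.43 against 1.55 and 7.35 against 2.72 FPKM, and Abcg2 was not called under total count scaling (q = 0.0687). Nfe2l2, which encodes NRF2, and Keap1, its inhibitor, had folds of 0.11 and -0.09. Of 20 iron and heme genes, 5 were higher, led by Tfr2, a transferrin receptor, at 14.6 against 2.15 FPKM (2.77 ± 0.44, q = 2.68e-08), and Lcn2, lipocalin, was lower. Under total count and upper quartile scaling, 3 iron and heme genes were higher and 2 lower.

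The next lists are set beside 7.21% higher and 5.95% lower over all tested genes, whose median was 0.20. Interferon-stimulated genes had 1 of 33 tested members higher, Isg20, and 4 lower, with a median of -0.34. Ifi44, Mx1 and Ifi27l2a were among the lower, with folds of -2.79, -1.82 and -1.50 in the authors' deposited table. Heat shock and integrated stress genes had a median of 0.09, with 0 higher and 1 lower of 23. Trib3, a target of ATF4, was the one, at 1.11 against 3.58 FPKM (-1.70 ± 0.52, q = 0.0079). Apoptosis genes had 1 higher and 4 lower of 21. Bcl2l11, which encodes the cell death initiator BIM, was at 0.471 FPKM (0.122 to 0.819) against 2.54 (1.63 to 3.44), a fold of -2.43 ± 0.59 (q = 0.000576). Bcl2 was at 7.91 against 5.01 FPKM and was not called.

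The largest gains by the naming rule included several genes better known outside blood. C1qtnf1, a secreted protein of the C1q and TNF-related family (chromosome 11, 118428457 to 118454995), was at 3.76 FPKM in SPL LSC (1.96 to 5.56) and 0.0644 in NBM (0.0179 to 0.111), a fold of 5.87 ± 0.62 with q listed as 0 in the authors' deposited table. Nov, a matricellular growth regulator, was at 1.29 against 0.0352 FPKM (5.20 ± 0.80, q = 4.68e-09). Its level was 4.06 FPKM in BM LSC, 8.76 in BL LSC and 5.47 in AT LSC, so the spleen was the lowest leukemic site. Nov was called lower than in BM LSC (-1.65, q = 0.00412), a call that ended when q was adjusted within that comparison (0.0503). Nlrp6, an innate immune sensor, was at 4.53 against 0.142 FPKM, and Asz1, a germ cell gene, at 2.28 against 0.0906 (4.66 ± 0.69). Lgals7, a galectin of epithelia, was at 14.1 against 0.481 FPKM (4.87 ± 0.65). The other names among the 14 largest gains belong to tandem gene families.

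Such families moved as blocks. On chromosome 8 all 8 Ces2 carboxylesterase members were higher with folds from 4.44 to 4.53, and on chromosome 13 all 8 Akr1c aldo-keto reductases from 3.27 to 4.67. All 12 Psg genes on chromosome 7, pregnancy-specific glycoproteins, had folds from 3.56 to 4.35, and all 11 Serpina3 protease inhibitors on chromosome 12 from 2.76 to 2.89. The 3 Clca genes on chromosome 3, 3 Khdc1 genes on chromosome 1 and 2 Crisp genes on chromosome 17 had folds between 4.50 and 5.05. Crisp1, a cysteine-rich secretory protein, was at 30.9 FPKM (16.4 to 45.4) in SPL LSC and 0.937 (0.417 to 1.46) in NBM. Fragments that match several copies can be shared among them, so which copies of a family were expressed cannot be told apart here. Of the genes called higher, 215 of 634 (33.9%) had another within 100 kb, against 905 of 7633 (11.9%) of the genes not called. For genes called lower the shares were 177 of 523 (33.8%) and 773 of 7633 (10.1%).

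The largest losses by the same rule followed Dntt. Eltd1, an adhesion receptor (chromosome 3, 151437882 to 151545081), was at 0.124 FPKM in SPL LSC (0.0365 to 0.212) and 12.4 in NBM (9.0 to 15.9), a fold of -6.64 ± 0.55 with q listed as 0 in the authors' deposited table. Serpinf1, an inhibitor of blood vessel growth, was at 0.179 against 5.89 FPKM (-5.04 ± 0.69, q = 2.63e-11). Mn1, a transcriptional coactivator linked to myeloid leukemia, was at 0.129 against 3.10 FPKM (-4.59 ± 0.54). Kmo, an enzyme of tryptophan breakdown, was at 0.821 against 18.6 FPKM (-4.50 ± 0.56, q = 2.43e-13). Cxcr6 and Ccr8, chemokine receptors of T and innate lymphoid cells, had folds of -4.52 ± 1.02 and -4.65 ± 0.81. The remaining genes of the 14 were Cox6a2, Cttnbp2nl, Cfhr2, Cd209a, Rgs16, Cyp7b1 and Aqp3, with folds from -5.37 to -4.19.

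**Figure D3:**
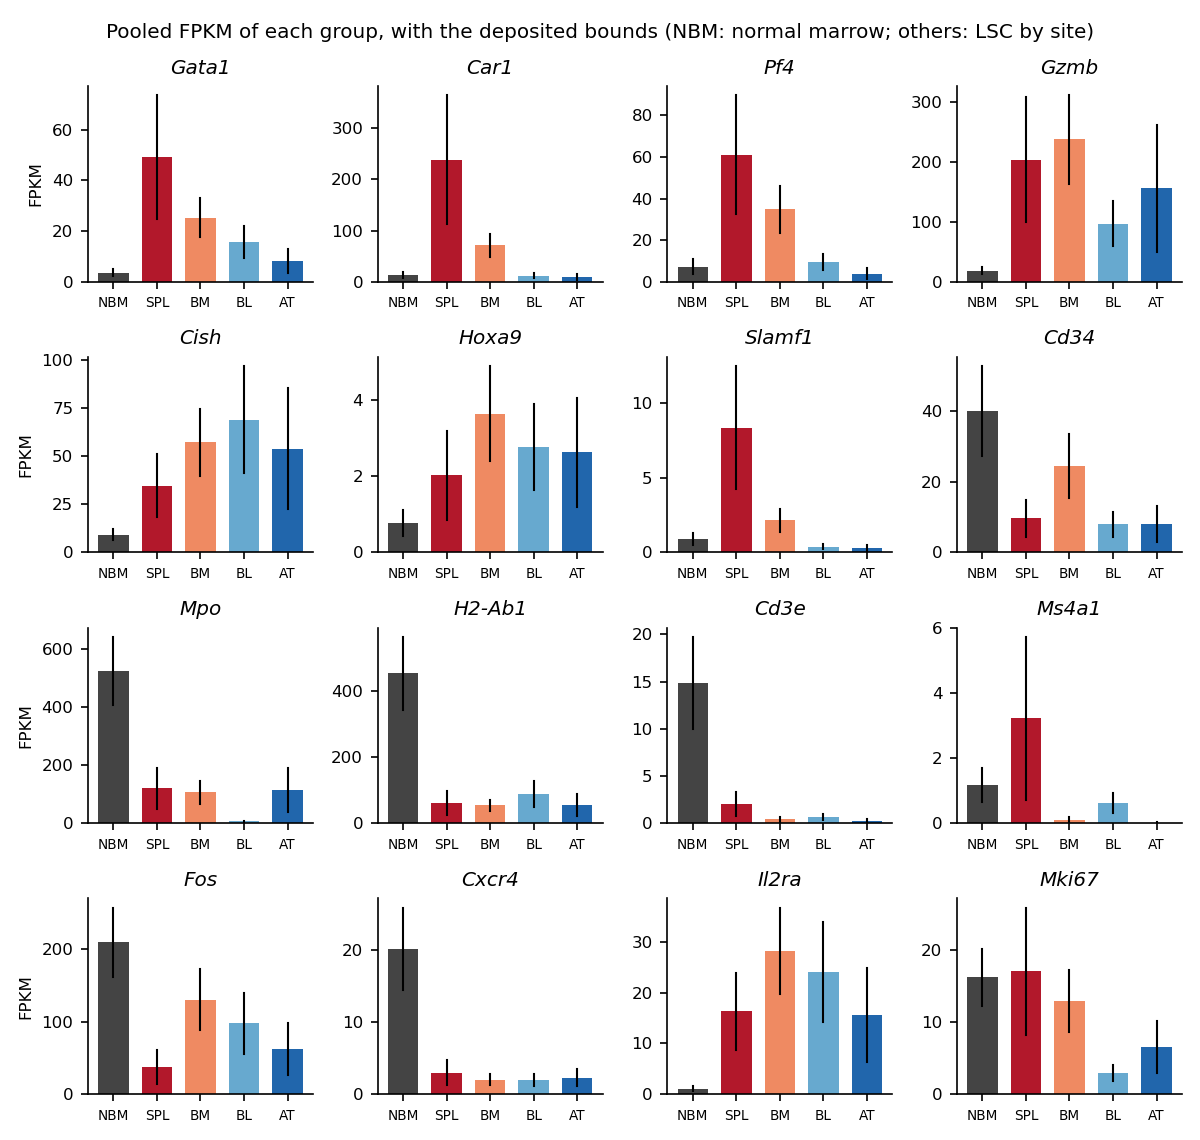
Pooled FPKM (y axes, linear from 0) of 16 genes in NBM and in LSC from spleen (SPL), marrow (BM), blood (BL) and adipose tissue (AT), with lines for the deposited bounds, 2 standard deviations either side and cut at 0. Gata1, Car1, Pf4 and Slamf1 are highest in SPL LSC, although Gata1 and Pf4 were not called between SPL and BM LSC. H2-Ab1, Cxcr4 and Mpo are highest in NBM, and Fos is lowest in SPL LSC.

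The same genes were then compared between SPL LSC and BM LSC. A difference between these 2 groups can lie with either site, so levels in BL and AT LSC are given for some genes. Of 8729 tested, 117 (1.34%) were higher in the spleen and 113 (1.29%) lower, fewer than against NBM. This count depends on the settings: with q adjusted within this comparison alone, 50 were higher and 31 lower. The scalings include that adjustment. Under total count scaling 32 were higher and 64 lower, and with folds centred on the median 43 and 47. Over all tested genes the median lay at 0.17. SPL LSC are shared by this comparison and the first, so values are set side by side without a test of their likeness.

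B cell genes had calls above marrow LSC. Of 14 tested members, 9 were higher in SPL LSC, with a median of 2.08 against 0.17, and 7 or 8 were under the alternative scalings and adjustment. Ms4a1 (chromosome 19, 11196817 to 11299884) was at 3.22 FPKM in SPL LSC (0.713 to 5.72) and 0.0942 in BM LSC (0.00476 to 0.184), a fold of 5.09 (q = 3.88e-07 in the authors' deposited table). Mzb1, a protein of antibody-secreting cells, was at 4.49 against 0.330 FPKM (3.77, q = 2.86e-07) and Cd79a, of the B cell receptor, at 2.58 against 0.289 (3.16, q = 0.000186). Ccr7 and Cd83, of migrating dendritic cells and activated B cells, were at 3.71 against 0.435 and 8.02 against 1.12 FPKM. In BL and AT LSC, Ccr7 was at 0.807 and 2.78 FPKM and Cd83 at 2.99 and 8.12. Ms4a1 was at 0.609 and 0.0111 FPKM there, under its level in SPL LSC. T cell and NK genes had 6 of 23 members higher, Cd3e and Cd3g among them, but 1 or 2 under the alternatives. Red pulp and tissue macrophage genes had 3 of 14 higher, Marco, Cd300e and C1qb, and 1 under each alternative, Cd300e. Mature spleen is rich in these cell types, and how far they account for the spleen values was not tested.

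Some of the red cell genes were also higher in the spleen than in marrow LSC. Of 20 tested erythroid members, 7 were called higher and 0 lower, with a median of 0.96, and 3 or 4 under the alternatives. Rhd was at 3.03 against 0.651 FPKM (2.22, q = 0.000796 in the authors' deposited table), Ermap at 3.68 against 0.986 (1.90, q = 0.000421) and Tspo2 at 14.2 against 3.99 (1.83, q = 0.000933). Car1 was at 239 FPKM (113 to 364) against 71.1 (48.6 to 93.5), a fold of 1.75 (q = 0.000998), and q = 0.0507 under total count scaling. Gata1 differed by 0.95 and was not called (q = 0.0902). Slamf1 was also higher, at 8.35 FPKM (4.24 to 12.5) against 2.15 (1.39 to 2.91), a fold of 1.96 (q = 0.000139). Sdpr, of caveolae, and Gdf3, a growth factor of the TGF-beta family, were above BM LSC by 3.47 and 3.14 and above NBM by 3.05 and 2.60. Slamf1, Rhd, Ermap, Tspo2, Sdpr and Gdf3 kept their calls over BM LSC under each of the 4 alternatives.

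Some mast cell genes were lower in the spleen than in marrow LSC. Of 14 tested members 5 were lower and 0 higher, with a median of -1.12, and 3 or 4 stayed lower under the alternatives. Cma1 was at 70.8 FPKM against 205 in BM LSC (-1.54, q = 0.00374 in the authors' deposited table), and Cpa3 at 36.9 against 113 (-1.62, q = 0.00142). Fcer1a was at 2.18 against 8.31 FPKM (-1.93, q = 0.000863). The level of Cma1 in the spleen thus lay between NBM (2.12) and BM LSC, and that of Fcer1a under both. Tpsb2, a mast cell tryptase below the level threshold in SPL LSC and NBM, was at 0.514 FPKM in SPL LSC, 0.581 in NBM and 16.1 in BM LSC.

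Some immediate early and inflammatory genes were lower in the spleen too. Of 16 tested immediate early genes, 9 were lower than in BM LSC, with a median of -1.27, but 2 or 3 under the alternatives. Fos fell from 131 FPKM in BM LSC (88.9 to 172) to 37.5 in SPL LSC (13.9 to 61.2), a fold of -1.80 (q = 0.00389 in the authors' deposited table). Klf2, a transcription factor that keeps lymphocytes quiescent, was at 1.22 against 5.31 FPKM (-2.12, q = 0.00102). Both kept their calls under the 4 alternatives, while Jun, Egr1, Atf3 and Dusp1 lost theirs under each. Among 22 cytokines 6 were lower and 1 higher, and 2 to 4 stayed lower under the alternatives. Ccl3 was at 37.2 against 114 FPKM (-1.62, q = 0.0011), Lif at 2.62 against 7.63 (-1.54, q = 0.00296) and Il6 at 3.89 against 9.84 (-1.34, q = 0.0246, not called under the alternatives).

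**Figure D4:**
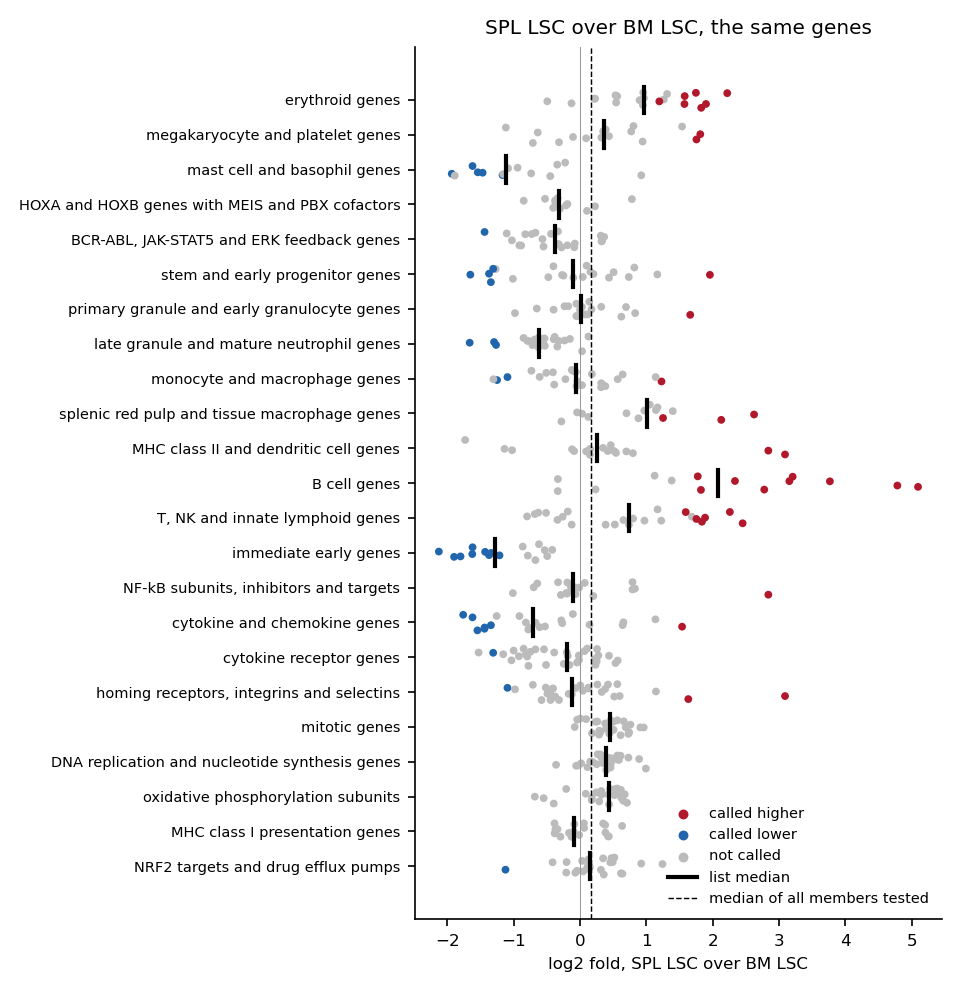
Log2 folds of SPL LSC over BM LSC (x axis) for the same 23 lists, each point a gene with a test, coloured and marked as for NBM; the dashed line is the median of all tested members, 0.17. B cell genes lie furthest to the right (median 2.08) and immediate early genes furthest to the left (median -1.27).

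Single genes that separated the 2 leukemic sites include Erv3, an endogenous retroviral gene, at 3.61 FPKM in SPL LSC, 26.9 in BM LSC and 0.210 in NBM (-2.90 over BM LSC, q = 3.30e-09 in the authors' deposited table). Erv3 was at 2.38 FPKM in BL LSC and 1.40 in AT LSC, so BM LSC stood above all the others. Slc7a3, a cationic amino acid transporter, was at 0.147 against 1.67 FPKM (-3.50, q = 1.02e-06), and Trib3 at 1.11 against 5.81 (-2.39, q = 2.90e-05). In BL and AT LSC, Slc7a3 was at 0.113 and 0.241 FPKM and Trib3 at 1.64 and 7.27. The milk protein genes Csn1s2b and Csn2 were lower than in BM LSC (-2.78 and -2.01) and higher than in NBM (4.81 and 3.25). Crisp1 and all 12 Psg genes shared both directions. Rgs1, a regulator of chemokine receptor signalling, was at 9.83 FPKM, below both BM LSC (41.8) and NBM (72.4). Cd34 was below BM LSC as well (9.60 against 24.3 FPKM, -1.34, q = 0.0287), a call that ended under each alternative. Its levels in BL and AT LSC, 7.92 and 8.07 FPKM, were also under that of BM LSC. The Ces2 and Clca families were higher in SPL LSC than in BM LSC, by 1.65 to 1.70 and by 1.95 to 1.98, in all 8 and all 3 members. Cxcr4, Mpo, H2-Ab1, Hoxa9, Socs2 and Il2ra were not called between SPL and BM LSC, with folds from -1.02 (Socs2) to 0.56 (Cxcr4).

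The files bear on these comparisons in several ways. The pooled columns held 8.96e+06 estimated fragments for SPL LSC, 1.95e+07 for NBM and 1.65e+07 for BM LSC, and the upper bound of the median gene lay 51.9%, 36.7% and 34.2% above its FPKM. The 10 most abundant genes took 12.1% of the SPL LSC counts and 8.66% of those of NBM. Ubb, a ubiquitin gene, alone held 3.51% in SPL LSC but was listed at 0 in NBM and BM LSC, which can be a failed estimate for a gene all cells use, and it had no test. Stromal genes were under 1 FPKM in SPL LSC for 16 of 21 found and endothelial genes for 14 of 18, with 3 and 2 listed at 0. Of 5 tested stromal genes 4 were higher than NBM, Col5a1, Col1a2, Thy1 and Nov, while Col1a1, Col3a1 and Dcn stood at 0.00787, 0.0161 and 0.00676 FPKM in SPL LSC. Xist and the Y-linked genes Ddx3y, Kdm5d and Eif2s3y were all detected in both groups, at 3.80, 1.99, 1.16 and 15.9 FPKM in SPL LSC and 4.25, 1.80, 1.10 and 11.4 in NBM, although the labels say female.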

How the data were processed

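Low-input libraries were made with Clontech SMARTer chemistry and Illumina Nextera XT from RNA isolated with a Qiagen RNeasy Plus kit, per the labels' protocols. The tools named for the mm10 build are Trimmomatic 0.32, Cufflinks 2.0.2 and Cuffdiff, per the submitters' processing notes. Which aligner, annotation and Cuffdiff version were used is not given in the sources used here.

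Per gene and group the authors deposited 1 pooled FPKM with bounds and 1 estimated count, and no value of a single library. Each comparison of 2 groups has its own deposited Cuffdiff table of log2 folds, test scores, p-values and q-values. Adjusting the p-values of all 10 comparisons together by Benjamini-Hochberg gave the deposited q-values. A test of counts per library was therefore not possible, and the authors' tests were read as deposited, with Python 3.11.15 and pandas 2.3.3. FPKM is scaled by length, so levels were compared between genes on that scale only.

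Named genes are called members with 100 or more estimated counts over both pooled columns, more than 3 in the lower group, 1 symbol and no predicted name. They are the 14 largest gains and 14 largest losses over NBM, the 8 and 8 over BM LSC, up to 4 per list with the smallest q, all called members of the HOX and STAT5 lists, and a fixed set (Meis1, Kit, Cd34, Myc, Mki67 and others). Other genes named, among them Marco, Rhd, Jun and Ubb, were chosen after seeing their values. A few genes that the rule or lists took are not reported here. The genes and the 40 lists (961 symbols, 941 found) were chosen with earlier results of these data known. Alternatives changed the scaling, the family of the adjustment, the q threshold and the filter on FPKM, and recomputed p from the implied standard error. Each change of scaling also adjusted q within the comparison alone. The recomputation was tested on simulated data.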

Additional observations from a re-analysis of the deposited data

Results flagged for a closer look

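The values here are log2 folds of SPL LSC over BM LSC, each called in the authors' deposited table. They cover those genes taken by the naming rule that were called over NBM at 1 of these 2 leukemic sites but not at the other, or whose folds over NBM had opposite signs. Genes called over NBM at both sites in the same direction, such as Cma1, are left to the comparison above even where the sites differed. A fold between the 2 sites does not show which of them differs from BL and AT LSC. B lineage genes had the highest values, with Ms4a1 at 5.09, Mzb1 at 3.77 and Cd79a at 3.16. Genes of migrating dendritic or activated B cells followed, with Ccr7 at 3.09 and Cd83 at 2.84. Sdpr stood at 3.47 and Gdf3 at 3.14, and both were also called higher than NBM. Cpox, an enzyme of heme synthesis, was at 1.46. Below marrow LSC were Slc7a3 at -3.50, Trib3 at -2.39, Klf2 at -2.12, Eepd1 at -1.94, Fos at -1.80, Cd34 at -1.34 and Il6 at -1.34. The calls of Cpox, Cd34 and Il6 ended under each of the 3 scalings and the adjustment within the comparison, and the other 12 kept theirs.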

How the results depend on the processing

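Calls are the authors', from pooled groups whose spread over libraries cannot be seen, and SPL LSC had fewer fragments than NBM, which limits what can be said of small changes. No paired analysis was possible because the files hold no value of a single library, and for that reason the replicate block, leaving out libraries and DESeq2 were not run. Against NBM the 1157 calls fell to 615 (341 higher, 274 lower) with FPKM of 1 or more in both groups and to 597 (338 and 259) with 5 or more in either. The other alternatives gave between 810 and 1570. Against BM LSC the 230 calls (117 higher, 113 lower) became 90 (43 and 47) with folds centred, 96 (32 and 64) under total count scaling, 87 (39 and 48) under upper quartile scaling and 81 (50 and 31) when adjusted within the comparison. They became 109 (61 and 48) at q below 0.01, 116 (55 and 61) with FPKM of 1 or more in both groups and 105 (55 and 50) with 5 or more, and without a filter 181 were lower. For BM LSC against NBM the 1359 calls (698 and 661) became 791 (412 and 379) with the filter on both groups, 683 (362 and 321) at 5 or more and 2053 without a filter, 1006 of them lower. Of the 162 named genes, 12 lost their call over NBM under total count scaling, 8 under upper quartile scaling, 6 with folds centred and 9 when adjusted within the comparison. The folds of Cd79a and Mki67, which were not called (0.11 and 0.07), turned negative with folds centred (-0.0049 and -0.0405), under total count scaling (-0.1639 and -0.1995) and under upper quartile scaling (-0.063 and -0.0986). The scalings moved every fold over NBM by -0.11, -0.27 and -0.17 (centred, total count, upper quartile), and the cause of the offset was not tested.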

Other observations

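Below the level threshold, 413 genes of the table were called between SPL LSC and NBM, 162 higher and 251 lower in the authors' deposited table. Some extend the groups above: Klf1, Slc4a1 and Trim10, for a red cell transcription factor, the anion exchanger and an erythroid ubiquitin ligase, were higher by 2.21, 3.64 and 4.04. Hlf, Robo4 and Sox4, genes of blood stem cells and early progenitors, had folds of -4.79, -4.67 and -2.82. Ebf1, which specifies B cells, was not called over NBM (1.50, q = 0.164) but was higher than in BM LSC (2.36, q = 0.034). These were chosen after their values were seen.

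Called genes were not spread evenly over chromosomes. On chromosome 14, which holds the granzyme and mast cell protease cluster, 39 of 309 tested genes were higher (12.6%) and 19 lower. The higher ones include 7 granzyme and 6 mast cell protease genes. On chromosome 6, 54 of 468 were higher (11.5%), and on chromosome 19, 14 of 318 (4.40%). On chromosome 1, 53 of 493 were lower (10.8%), against 9 of 296 (3.04%) on chromosome X. Neighbouring copies that share fragments count more than once in these shares.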
